A study of Mus musculus with 4 samples.

Results

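Layer 6b neurons are excitatory neurons that form the deepest, thin sheet of the cerebral cortex, directly above the white matter. Here they were picked as single nuclei by the genes they held. A nucleus counted as excitatory when it had at least 2 UMIs (unique molecular identifiers, each a counted transcript molecule) of the excitatory genes Slc17a7 and Sv2b together, and more of these than of the inhibitory genes Gad1 and Gad2. An excitatory nucleus was taken as layer 6b when it held at least 1 UMI of at least 2 of the 4 genes Cplx3, Ccn2, Moxd1 and Svil, and at least 5 UMIs of Inpp4b and Kcnab1 together. The rule took 240 of 12605 excitatory nuclei, among 27085 nuclei of all kinds that had 500 or more genes detected and less than 5% of their UMIs from mitochondria. These 240 nuclei are called layer 6b nuclei below. Because measured values chose them, every difference between them and other nuclei of the same library is a description and was not tested.

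Layer 6b is regarded as what remains in the adult of the subplate, a transient zone whose neurons are among the earliest born in the cortex and guide thalamic axons during development. In the adult its neurons connect within the cortex and with higher-order thalamus, and some of them respond to orexin, a peptide of the hypothalamus that promotes waking. Of the genes in the rule, Cplx3 encodes a complexin of vesicle release, Ccn2 a secreted matrix protein, Moxd1 a monooxygenase-like enzyme, Svil the actin-binding protein supervillin, Inpp4b a phosphoinositide phosphatase and Kcnab1 an accessory subunit of potassium channels.

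The nuclei came from the primary motor area of C57BL/6N mice, dissected from frozen coronal sections, and were sequenced with a 10x Chromium 3' kit. There were 4 libraries of 1 library per group. The first mice slept ad lib without any deprivation, and the second were sleep deprived by gentle handling. The other libraries came from mice that received AAV8-hSyn-FLAG-SIK3(WT) or AAV8-hSyn-FLAG-SIK3(Ex13del) locally in the same region, an adeno-associated virus that expresses FLAG-tagged SIK3, a kinase implicated in sleep need, from the human synapsin promoter, which is active mainly in neurons. The submitters call the SIK3 that lacks exon 13 a gain-of-function form. No library of a virus without SIK3 was analysed here. Age, sex, number of pooled mice, hours of deprivation and the sleep of the injected mice are not given in the labels. With 1 library per group no difference between libraries has a replicate check, no test was made, and the 95% intervals cover counting error only. Values for the 4 libraries are given throughout in the order ad lib sleep, sleep deprivation, wild-type vector and exon 13 deleted vector.

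The libraries held 43655557 to 54070503 UMIs over 5944 to 9438 barcodes. Pairs of libraries shared 9 to 16 barcodes, and 0 of these were layer 6b nuclei. The layer 6b nuclei numbered 81, 61, 53 and 45. They made up 1.96% (1.56 to 2.43), 2.31% (1.77 to 2.96), 1.64% (1.23 to 2.14) and 1.73% (1.27 to 2.31) of the excitatory nuclei, and differences between these shares were not tested. Their summed UMIs were 948784, 1112731, 732620 and 646629. Their median depth of 9815, 15837, 11839 and 12899 UMIs was above that of the other excitatory nuclei in each library (7654, 11520, 8902.5 and 9624), and the sleep deprivation library was the deepest for both.

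The labelled cell type was checked against its own markers. Levels are in CPM, the UMIs of a gene per 1000000 UMIs summed over the nuclei of a group. Cplx3 stood at 126.5, 102.5, 86.0 and 74.2 CPM in layer 6b nuclei and at 1.59 to 2.35 CPM in other excitatory nuclei. Ccn2 stood at 137, 114, 84.6 and 152 CPM against 2.91 to 4.46 CPM, and Inpp4b at 1475, 1063, 1148 and 1387 CPM against 71.9 to 107 CPM. These levels follow from the rule. A UMI of Svil was present in 209 of the 240 nuclei, of Ccn2 in 188, of Cplx3 in 154 and of Moxd1 in 110. All 4 of these genes were present in 50 nuclei, 3 in 81 and 2 in 109. The summed UMIs of Inpp4b and Kcnab1 had a median of 25 and ran from 5 to 124. Just inside this threshold, 20 nuclei had 5 to 7 UMIs, and just outside it 22 nuclei that met every other condition had 3 or 4.

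Other genes known from layer 6b and the subplate, which the rule did not use, were also high in these nuclei, and all 4 libraries gave the same picture. Of a list of 12 such genes, 9 reached a mean of 20 CPM, and 7 of the 9 were more than 1.5-fold above other excitatory nuclei in every library (Tmem163, Lpar1, Nr4a2, Serpini1, Hs3st4, Drd1 and Gabra5), against 3.68% of 7195 genes measured. No gene of the list was more than 1.5-fold below, against 3.82% of all genes. The genes used by the rule and genes that go with them share these nuclei, so the counts describe the choice.

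Tmem163, a zinc transporter of vesicles, stood at 313, 260, 218 and 249 CPM in layer 6b nuclei and at 22.2 to 28.4 CPM in the other excitatory nuclei. Lpar1, a receptor of lysophosphatidic acid, stood at 100.1, 88.1, 92.8 and 97.4 CPM against 9.84 to 16.3 CPM. Nr4a2, a nuclear receptor that marks subplate-derived neurons, stood at 70.6, 77.3, 58.7 and 66.5 CPM against 5.06 to 7.85 CPM. Each of the 3 genes was therefore several-fold above the other excitatory nuclei in each library. They were named as the 3 of largest ratio in the list, so the size of the gap follows in part from that choice. Hs3st4, a heparan sulfate sulfotransferase, was abundant at 2379, 2509, 2110 and 2278 CPM against 649 to 723 CPM, yet it stood at 2104 to 2678 CPM in layer 6 corticothalamic-like nuclei too. Drd1, the D1 dopamine receptor, was the most uneven gene of the list across libraries, with 43.2, 22.5, 17.7 and 54.1 CPM against 4.81 to 8.97 CPM.

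The orexin receptor Hcrtr2 did not separate layer 6b nuclei from other deep-layer nuclei. It stood at 26.4, 26.1, 15.0 and 43.3 CPM, against 10.4, 16.7, 16.1 and 16.3 CPM in all other excitatory nuclei, 26.3 to 52.3 CPM in corticothalamic-like nuclei and 56.4 to 91.6 CPM in layer 5/6 near-projecting-like nuclei. A UMI of Hcrtr2 was found in 9, 13, 6 and 9 layer 6b nuclei. Corticothalamic-like nuclei were 1842 other excitatory nuclei with at least 3 UMIs of Foxp2, 1 of Tle4 and 1 of Syt6, Rprm or Ntsr1. Near-projecting-like nuclei were 299 of the remaining ones with at least 10 UMIs of Tshz2 and 1 of Vwc2l, Trhr or Sla2. Nxph4, a neurexophilin often used to mark layer 6b, was sparse but concentrated, at 20.03, 17.1, 6.83 and 17.0 CPM against 0.237 to 0.469 CPM. Both genes were singled out after their values were seen.

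Among genes that averaged 50 CPM or more, 80 of 3645 (2.19%) were more than 2-fold higher in layer 6b nuclei than in other excitatory nuclei in all 4 libraries, and 63 (1.73%) were more than 2-fold lower. The counts leave out the genes of the rule. The highest of them, by the library where the ratio was nearest to 1, were Gm45321, C130073E24Rik, Gm41414, 4930555F03Rik, Gm2516 and Gm45323, all noncoding RNAs or genes with no assigned function. Fbxl7, an F-box protein of ubiquitin ligases, followed with 495, 274, 435 and 394 CPM against 11.7 to 14.9 CPM. Vwc2, a secreted BMP antagonist, stood at 127.5, 86.3, 124 and 91.2 CPM against 9.02 to 14.1 CPM. Adgrg6, an adhesion G protein-coupled receptor, stood at 159, 68.3, 106.5 and 105.2 CPM against 5.77 to 16.6 CPM. Pcsk5, a proprotein convertase, stood at 574, 421.5, 403 and 362 CPM against 60.3 to 74.8 CPM, but near-projecting-like nuclei had 317 to 426 CPM of it. The protein-coding genes Nhs, Atp10a, Galnt10, Sema5b, Rai14 and Dlg5 completed the leading 20 genes with Tmem163, Lpar1, A330015K06Rik and the olfactory receptor gene Olfr115.

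**Figure D1:**
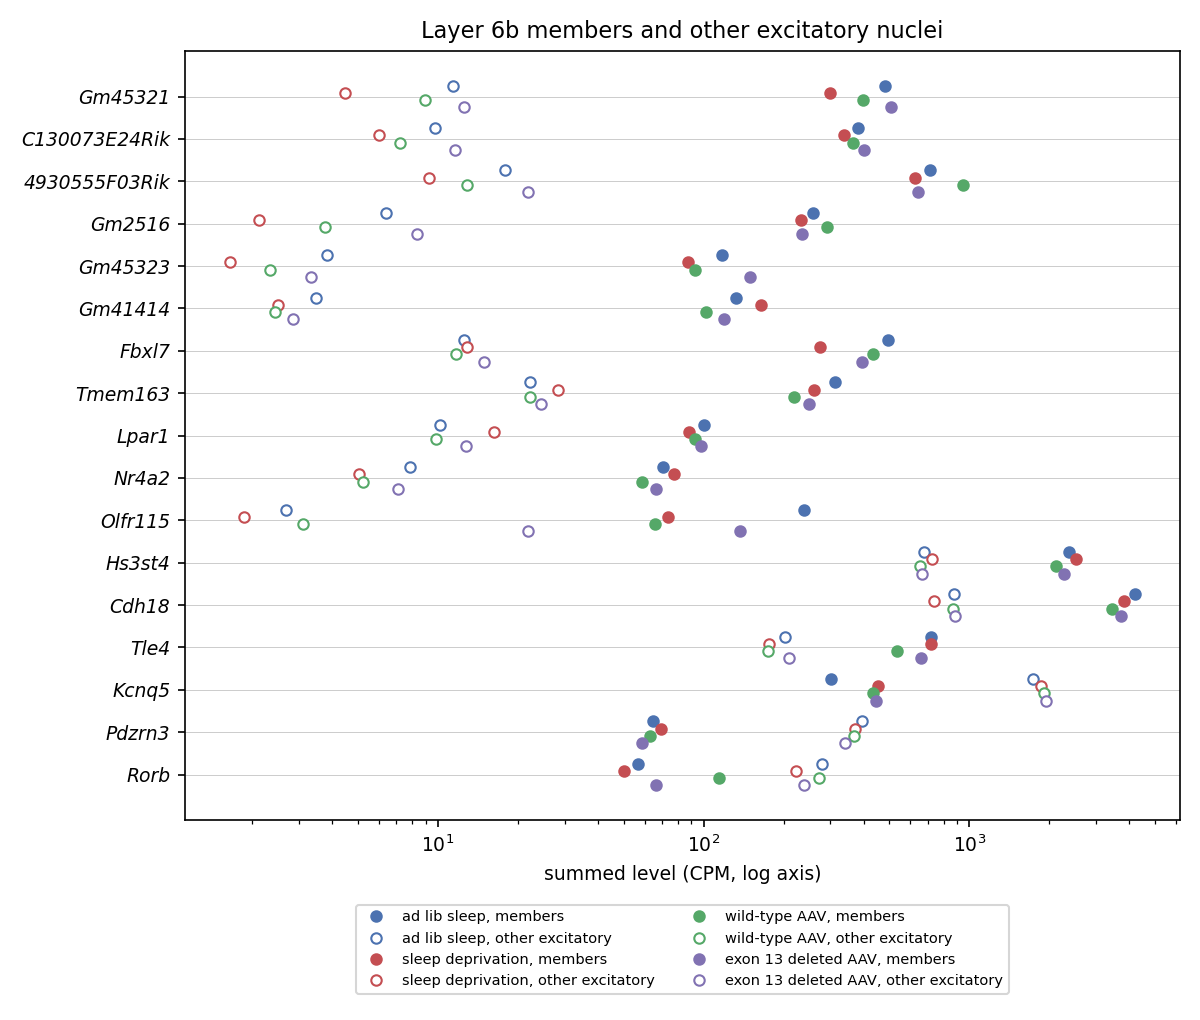
Level of 17 genes in layer 6b nuclei (members, filled points) and other excitatory nuclei (open points) of each of the 4 libraries, in CPM on a log axis, with 1 colour per library. The filled points lie to the high side of the open points from Gm45321 (479.6, 299, 397 and 506 CPM against 4.46 to 12.5 CPM) to Tle4, and to the low side for Kcnq5, Pdzrn3 and Rorb.

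Among genes that were low, Kcnq5 encodes a channel of the M-type potassium current. It stood at 302.5, 454, 435 and 447 CPM in layer 6b nuclei against 1736 to 1939 CPM in other excitatory nuclei, 730.1 to 920.4 CPM in corticothalamic-like nuclei and 771 to 1243 CPM in near-projecting-like nuclei. Pdzrn3, a ubiquitin ligase, stood at 64.3, 69.2, 62.8 and 58.8 CPM against 341 to 396 CPM. Cdh12, a cadherin, stood at 179, 161, 136.5 and 184 CPM against 589 to 633 CPM. The 4 libraries were alike in Pdzrn3 and Cdh12. Tafa1, a secreted ligand that was also among the lowest 10, stood at 174, 209, 161 and 34.0 CPM against 814.5 to 1315 CPM. It was lowest in the exon 13 deleted library, but 92 of its 118 wild-type UMIs lay in 1 nucleus. Without the highest nucleus of each library Tafa1 stood at 35.5 CPM with the wild-type vector and 17.0 CPM with the exon 13 deleted vector.

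Adhesion and guidance genes were found on both sides. Of 44 such genes, 7 were more than 1.5-fold higher and 10 more than 1.5-fold lower in every library, against 3.68% and 3.82% of all 7195 genes. Cdh18 was the most marked of the abundant ones, with 4179, 3812, 3444 and 3707 CPM against 735 to 886 CPM. Cdh13 stood at 996, 650, 682.5 and 812 CPM against 177 to 205 CPM. Both are cadherins, as are Cdh8 and Cdh12, which were lower. Epha4, an ephrin receptor of axon guidance, stood at 65.4, 77.3, 80.5 and 91.2 CPM against 229 to 288 CPM.

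Of 25 transcription factors of deep cortical layers, 23 were measured, and 6 were higher and 6 lower past 1.5-fold, against the same 3.68% and 3.82%. Tle4, a corepressor of deep-layer neurons, stood at 716, 717, 535 and 656 CPM against 175 to 209 CPM, a level also seen in corticothalamic-like nuclei (551 to 583 CPM). Zfpm2 stood at 804, 769, 932 and 829 CPM against 328 to 383 CPM, and Nfia at 402, 475, 415 and 425 CPM against 186 to 203.5 CPM. Cux2 and Rorb, which mark upper layers, were lower: Cux2 stood at 20.03, 53.0, 40.9 and 44.9 CPM against 116 to 128.5 CPM.

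Transmitter receptors and channels are listed with the same threshold of 1.5-fold in every library, which 3.68% of all genes passed upwards and 3.82% downwards. Of 20 glutamate receptor genes measured, 3 were higher and 1 lower past 1.5-fold, led by the kainate receptor Grik3 with 487, 449, 453 and 585 CPM against 140.5 to 168 CPM. Of 11 GABA-A receptor genes, Gabra5 was higher, and Gabra2 was lower with 44.3, 70.1, 45.0 and 57.2 CPM against 145 to 164 CPM. Of 36 potassium and HCN channel genes, 5 were higher and 6 lower, Kcnq5 among the latter. Of 15 neuromodulator receptors, Drd1 and Htr2a were higher and Adrb1 was lower. Of 7 peptide and lipid receptors, 3 were higher and 2 lower. Oprm1, the mu opioid receptor, stood at 532, 418, 449 and 561 CPM against 202 to 250.3 CPM, and Cnr1, the cannabinoid receptor, at 19.0, 24.3, 16.4 and 10.8 CPM against 54.6 to 57.2 CPM.

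Of the 6 leading noncoding genes, all but Gm41414 are neighbours on chromosome 8. On mm10 they lie between Tenm3, a teneurin of synaptic wiring on the minus strand (chr8:48227682-48843951), and Aga (chr8:53511727-53523421). The stretch taken here ran from 48843665 to 50916997 on chromosome 8, 2.07 Mb. It held 11 annotated genes, of which 3 had fewer than 10 UMIs in all layer 6b nuclei. The remaining 8 are noncoding by the GENCODE annotation: Gm19744, which overlaps the start of Tenm3 on the other strand, Gm45829, 4930555F03Rik (chr8:49370886-49548994, plus strand), Gm45321 (chr8:49818937-49949006, plus), Gm45323 (chr8:49959483-50013384, minus), Gm45341 (chr8:50117745-50517889, minus), Gm2516 (chr8:50368112-50416088, plus, within the span of Gm45341) and C130073E24Rik (chr8:50743291-50916997, minus). The strand used in counting is not given in the sources used here, so reads of overlapping genes may not be told apart. The stretch was singled out after its values were seen. Between its end and Aga, the noncoding gene Gm45388 (chr8:52080163-52099750) had 33 UMIs in layer 6b nuclei and was not included. It stood at 7.38, 8.99, 5.46 and 18.6 CPM against 0.937 to 1.37 CPM in other excitatory nuclei.

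The starts of 2 of the 8 genes have an entry in the RefSeq promoter table of the build GRCm38.p6. They are shown because these genes are among the 6 that led the comparison with other excitatory nuclei. Each window is 300 bases long, spans the annotated start and ends in the first exon of the gene. Both strands were searched for the CCAAT box, spelled CCAAT, and for TAATTA, the core that homeodomain factors bind. Capitals mark matches, with ATTGG for CCAAT on the other strand. The first window, of 6 for this gene, is chr8:49370636-49370935 on the plus strand and the second chr8:50367862-50368161 on the plus strand.
4930555F03Rik: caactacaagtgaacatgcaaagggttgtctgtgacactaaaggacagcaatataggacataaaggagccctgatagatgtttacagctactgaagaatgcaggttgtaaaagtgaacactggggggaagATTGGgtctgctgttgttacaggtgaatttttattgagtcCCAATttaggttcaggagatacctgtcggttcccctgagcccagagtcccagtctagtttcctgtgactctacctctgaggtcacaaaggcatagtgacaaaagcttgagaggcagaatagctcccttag
Gm2516: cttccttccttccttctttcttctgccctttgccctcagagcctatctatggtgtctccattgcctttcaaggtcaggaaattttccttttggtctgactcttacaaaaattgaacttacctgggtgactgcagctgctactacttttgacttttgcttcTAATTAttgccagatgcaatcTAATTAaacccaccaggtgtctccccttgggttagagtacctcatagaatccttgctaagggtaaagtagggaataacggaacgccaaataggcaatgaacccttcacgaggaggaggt
The first window held 2 CCAAT matches and 0 TAATTA matches, and the second 0 and 2. Over all 6 windows of 4930555F03Rik the CCAAT matches ran from 0 to 3, and the window chr8:49472653-49472952 held 1 TAATTA match. The contrast between the 2 genes thus depends on the window shown. Of 32851 promoter windows in the table, 37.4% held CCAAT and 5.29% held TAATTA. A match says that the letters are present in the window.

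The 8 genes of the stretch were high together in layer 6b nuclei. Their summed level was 2059, 1708, 2219 and 2046 CPM, against 54.3, 28.5, 39.3 and 63.9 CPM in the other excitatory nuclei. It was 13.1 to 60.1 CPM in corticothalamic-like nuclei, 1.55 to 20.3 CPM in near-projecting-like nuclei and 239 to 312 CPM in inhibitory nuclei. Layer 6b nuclei had the highest level in every library. Several of the 8 genes were among those of largest ratio, so the size of this gap follows in part from how the stretch was found. 4930555F03Rik alone stood at 712.5, 622, 946 and 639 CPM against 9.26 to 21.8 CPM, and C130073E24Rik, at the far end, at 381.5, 337, 364 and 402 CPM against 6.03 to 11.6 CPM. Tenm3, next to the stretch, stood at 579, 497, 444 and 487 CPM against 147 to 183 CPM.

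Within single nuclei the genes of the stretch were mostly present together or absent together. Of the 240 nuclei, 37 held none of the 8 genes, 12 held 1, 15 held 2, 10 held 3, 32 held 4 and 35 held 5. The most filled classes were 43 nuclei with 6 genes and 41 with 7, and 15 nuclei held all 8. At least 3 of the 8 genes were found in 176 of the 240 (73.3%), or 77.8%, 72.1%, 73.6% and 66.7% by library. The same was true of 271 of 12365 other excitatory nuclei (2.19%), 39 of 1842 corticothalamic-like (2.12%) and 2 of 299 near-projecting-like nuclei (0.669%). Among 3235 inhibitory nuclei it was 408 (12.6%), at median depths of 6574 to 10508 UMIs, and among 11245 nuclei of the remaining kinds 215 (1.91%), at median depths of 1570.5 to 2251.5 UMIs. The share in inhibitory nuclei was thus above that in the deeper other excitatory nuclei.

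**Figure D2:**
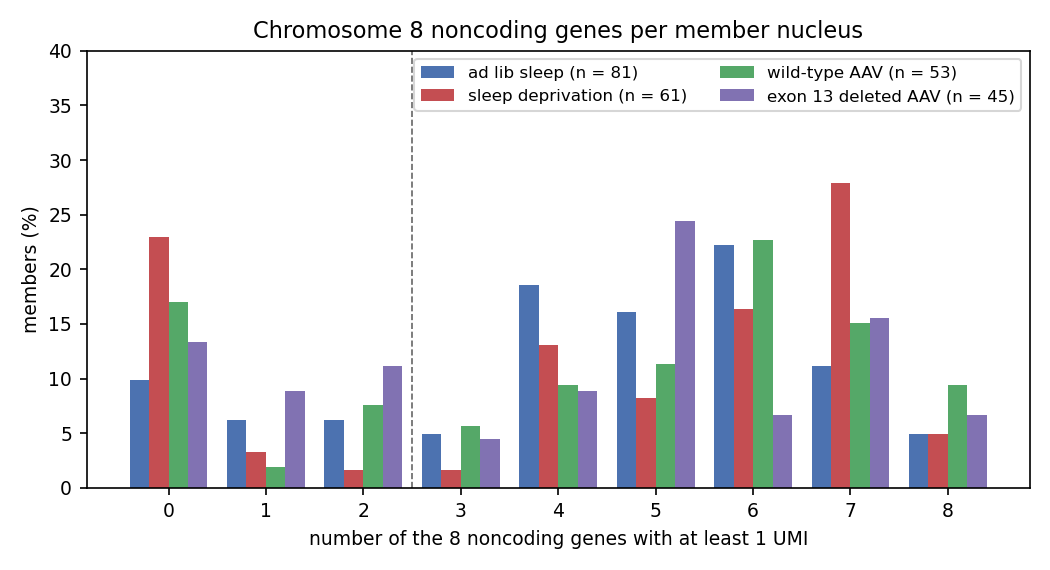
Share of layer 6b nuclei of each library, in percent, by how many of the 8 noncoding chromosome 8 genes had at least 1 UMI, with bars in 1 colour per library and a dashed line between 2 and 3 genes. Most nuclei lie to the right of the line (176 of 240), and a smaller group of 37 sits at 0 genes.

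The 64 layer 6b nuclei with fewer than 3 of these genes were weaker members by other measures as well. They held just 2 of the 4 rule genes in 52 cases. At least 10 UMIs of Tshz2, the near-projecting marker, were found in 11 of the 64 and in 1 of the other 176. The summed level of 4 near-projecting markers was 777, 1387, 314 and 416 CPM in the 64 nuclei and 160, 130, 113 and 124 CPM in the 176. The summed level of 9 vascular markers was 21.1, 356, 759 and 433 CPM against 22.5, 13.3, 29.9 and 6.43 CPM, and 1 nucleus of the wild-type library held 188 vascular UMIs. High doublet scores were given to 27.8%, 17.6%, 50% and 20% of them, against 6.35%, 11.4%, 2.56% and 10% of the 176 and 6.93% to 10.4% of other excitatory nuclei. The other 176 are called the core nuclei below, and many later results give their values beside those of all 240. They were defined after the values were seen, and made up 1.52%, 1.67%, 1.21% and 1.15% of the excitatory nuclei. In both sets astrocyte markers were higher than in other excitatory nuclei, at 1071, 1092, 1192 and 1203 CPM in all layer 6b nuclei against 682 to 736.5 CPM, mostly from the glutamate transporter Slc1a2 (1024 to 1172 CPM against 615 to 667 CPM), and their part in the results was not tested.

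A group of olfactory receptor genes divided the core nuclei further. The 7 genes Olfr110 to Olfr116 lie side by side on chromosome 17 (chr17:37492468-37627199 on mm10). Olfactory receptors detect odorants in the nose, and single genes of the family are transcribed in other tissues too. They are a multigene family with near-identical members, and Olfr115 and Olfr116 overlap on 1 strand, so the levels of single genes are uncertain. Olfr115 stood at 239, 73.7, 65.5 and 138 CPM in layer 6b nuclei against 2.69, 1.86, 3.12 and 21.8 CPM in other excitatory nuclei. Olfr111 stood at 164, 49.4, 47.8 and 107 CPM and Olfr112 at 143, 36.9, 65.5 and 107 CPM. All 3 were highest in the ad lib sleep library.

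Core nuclei held from 0 to many UMIs of these genes. At least 3 UMIs over the 7 genes were found in 24 of 63, 9 of 44, 9 of 39 and 11 of 30 core nuclei, and up to 95 in 1 nucleus. These shares were 38.1% (26.2 to 51.2), 20.5% (9.80 to 35.3), 23.1% (11.1 to 39.3) and 36.7% (19.9 to 56.1). The intervals cover the counting of nuclei within a library, and a difference between libraries was not tested. No UMI was found in 29, 31, 25 and 14 core nuclei, or 99 of 176. The remaining 10, 4, 5 and 5 core nuclei, or 24 of 176, held at least 1 UMI but fewer than 3. In core nuclei with at least 3, the median was 16.5, 7, 7 and 14 of these UMIs. Of the 64 layer 6b nuclei outside the core, 4 had at least 3 UMIs. Depth did not line up with the split in 1 direction: nuclei with at least 3 UMIs had median depths of 7870.5, 21655, 10548 and 13056 UMIs, and those with 0 had 11229, 14577, 10435 and 13908. After each nucleus was thinned to 5000 UMIs, 48.2%, 23.3%, 28.2% and 41.4% of core nuclei held a UMI, against 54.0%, 29.5%, 35.9% and 53.3% before, with 7, 1, 0 and 1 shallower nuclei left out.

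The 53 core nuclei with at least 3 olfactory receptor UMIs differed from the 99 with 0 in other genes, within each library. The 24 core nuclei between these classes were left out of this comparison. Of 1661 genes that averaged 100 CPM or more, leaving out the olfactory receptors, 10 (0.602%) were more than 2-fold higher in the 53 in all 4 libraries and 3 (0.181%) more than 2-fold lower. The split and the genes were found in the same nuclei, so these counts have no test.

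Kirrel3, an adhesion protein that sorts axons and synapses, was at 2230, 1481, 1648 and 1585 CPM in nuclei with the receptors and at 426, 252, 418 and 252 CPM in those without. Chrm2, the M2 muscarinic acetylcholine receptor, stood at 276, 214, 165 and 173 CPM against 33.8, 38.4, 61.5 and 41.2 CPM. Tox, an HMG-box regulator, stood at 516, 399, 464 and 437 CPM against 175, 132, 139 and 111 CPM. Genes were named here for being more than 2-fold higher in all 4 libraries, so the gap in these 3 follows from that choice. The transcription factor Mitf, the glycine receptor subunit Glra2, the growth factor Ptn, and Fbxl7, Vwc2l, Sgcd and Ptprt were the others on the higher side. Fbxl7, one of the leading layer 6b genes, was at 958.5, 698, 1452 and 873 CPM against 285, 212, 298 and 305 CPM.

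On the lower side stood Brinp3, Srgap3 and Gm12296. Brinp3, a neural protein of the family induced by retinoic acid and BMP, was at 36.6, 4.99, 134 and 114 CPM in nuclei with the receptors and at 817, 861, 311 and 557 CPM in those without. Srgap3, a regulator of actin in neurites, was at 77.2, 44.9, 61.8 and 59.8 CPM against 166, 102, 165 and 198 CPM. Nr4a2 was singled out after its values were seen. A UMI of it was found in 7 of the 53 nuclei (13.2%) and in 64 of the 99 (64.6%), with shares of 8.33%, 11.1%, 22.2% and 18.2% against 62.1%, 64.5%, 64.0% and 71.4%. Of the 6 genes of the rule, none was past 2-fold in 1 direction in all 4 libraries. Ccn2 was at 195, 125, 185 and 191 CPM against 115.5, 144, 77.7 and 148.5 CPM, higher in 3 of the 4 libraries. Inpp4b (1.003 to 2.36) and Kcnab1 (1.27 to 1.84) had ratios above 1 in all 4 libraries, and Moxd1 (0.53 to 0.909) ratios below 1. Tmem163, which the rule did not use, was at 499.6, 339, 433 and 353 CPM against 341, 360.0, 259 and 289 CPM.

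**Figure D3:**
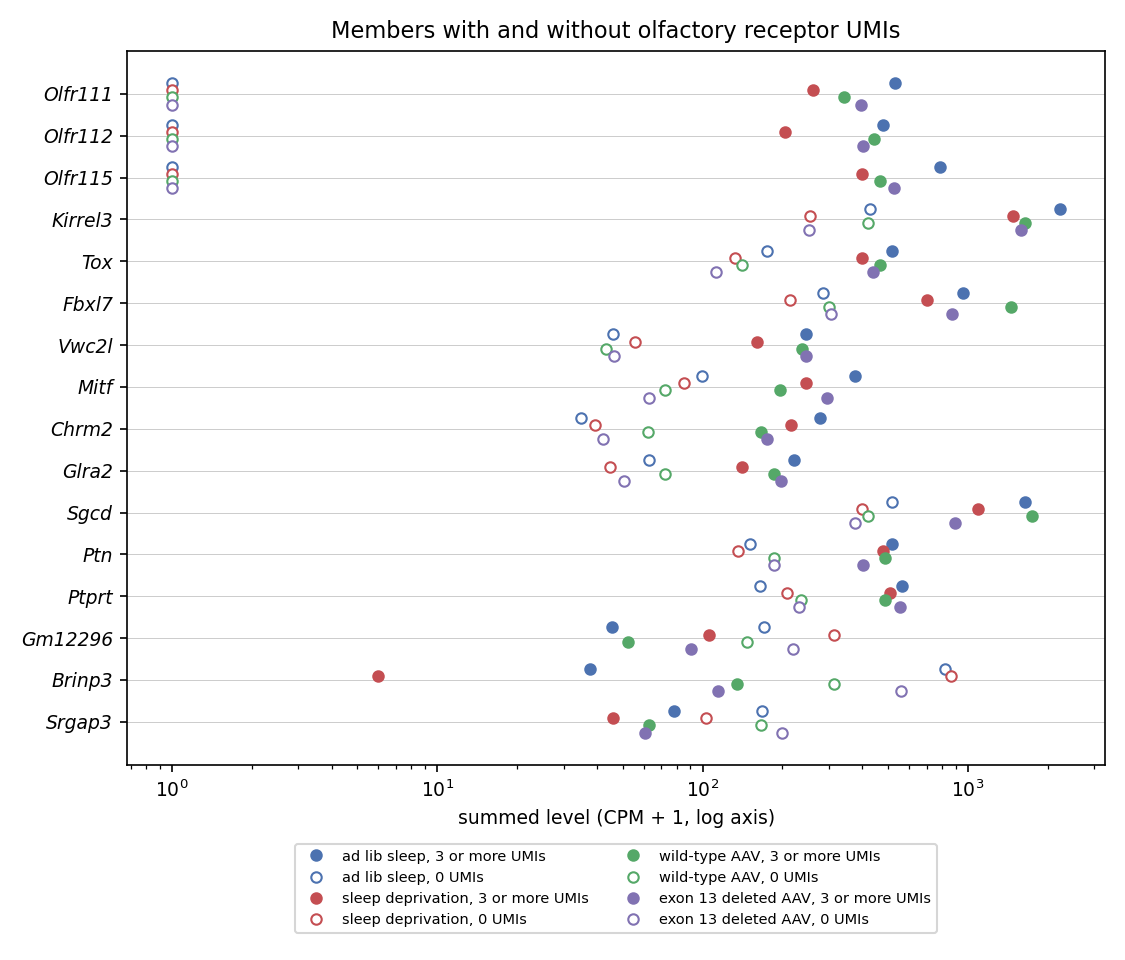
Level of genes in core layer 6b nuclei with at least 3 UMIs of Olfr110 to Olfr116 (filled points) and with 0 (open points) in each library, in CPM plus 1 on a log axis, with 1 colour per library. Kirrel3, Chrm2 and Tox lie higher and Brinp3 and Srgap3 lower where the receptors are present, in all 4 libraries.

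Before the libraries were compared, the targeted gene and the vector were examined. Sik3 stood at 201, 231, 232 and 247 CPM in layer 6b nuclei. The ratio was 1.15 (0.948 to 1.39) for sleep deprivation over ad lib sleep, 1.15 (0.932 to 1.43) for wild-type vector over ad lib sleep and 1.07 (0.854 to 1.33) for exon 13 deleted over wild-type vector. Each interval includes 1. In other excitatory nuclei the ratios were 1.17 (1.13 to 1.21), 1.27 (1.23 to 1.32) and 0.995 (0.961 to 1.03) in the same order. WPRE_pA, a feature named for the end of the vector transcript, had 0 UMIs in the 81 and the 61 layer 6b nuclei of the libraries without vector, which allows a share of nuclei with a UMI of up to 3.70% and 4.92%.

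A vector UMI was found in 13 of 53 layer 6b nuclei of the wild-type library (24.5%, 13.8 to 38.3) and 11 of 45 of the exon 13 deleted library (24.4%, 12.9 to 39.5). Other excitatory nuclei gave 21.3% and 25.2%, and oligodendrocyte-like nuclei, in which the promoter should be silent, 16.2% and 23.2% at a median depth of 2228 and 2271 UMIs. A single vector UMI is therefore not read as transduction. In the wild-type library 3 layer 6b nuclei held 115, 25 and 20 of the 173 vector UMIs, and in the exon 13 deleted library no nucleus held more than 2 of the 12. The level was 236 CPM in the wild-type library, 17.7 CPM without those 3 nuclei, and 18.6 CPM in the exon 13 deleted library. Comparisons of the vector libraries thus describe layer 6b nuclei of injected tissue. At least 10 vector UMIs were found in 3 of these nuclei with the wild-type vector and in 0 with the exon 13 deleted vector.

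The comparisons of sleep deprivation and of wild-type vector with ad lib sleep share the ad lib sleep library, and the comparisons of exon 13 deleted with wild-type vector and of wild-type vector with ad lib sleep share the wild-type library, so they are not independent of each other. Fewer transcripts per nucleus and a different mix of nuclei within the class cannot be told apart in the sums.

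In the layer 6b nuclei of the sleep-deprived mice, genes of the glutamatergic postsynapse and cytosolic chaperones were mostly higher than under ad lib sleep. Cholesterol synthesis genes were mostly lower, and the stress-hormone target Fkbp5 was higher. Other excitatory nuclei went in the same directions. Of 7013 genes that averaged 20 CPM or more in layer 6b nuclei, 588 (8.38%) were more than 1.5-fold higher and 482 (6.87%) more than 1.5-fold lower. Of all these genes 52.8% were higher, with a median log2 ratio of 0.02.

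Of 33 postsynaptic genes measured, 28 were higher, with a median log2 ratio of 0.26. In the other excitatory nuclei it was 25 genes and 0.21, so the direction was shared. Shank1, a scaffold of excitatory synapses, stood at 69.6 CPM under ad lib sleep and 164.5 CPM after deprivation, and at 96.9 and 129.9 CPM in the vector libraries. The ratio was 2.36 (1.78 to 3.18), against 1.57 in other excitatory nuclei and 2.68 in core nuclei. Past 1.5-fold were also the AMPA receptor auxiliary subunits Cacng3 (1.72, 1.22 to 2.47) and Cacng8 (1.59, 1.095 to 2.34), the scaffold Dlg4 (1.55, 1.11 to 2.19) and Baiap2 (1.54, 1.23 to 1.94). The most abundant member, Dlg2, was level at 6196 and 6197 CPM.

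Of 14 chaperones, 12 were higher, with a median log2 ratio of 0.39 against 0.30 in other excitatory nuclei. After each nucleus was thinned to 5000 UMIs the median in layer 6b nuclei was -0.012. Hspa8, the constitutive Hsp70, stood at 149.7, 224, 183 and 254 CPM, and its ratio for sleep deprivation was 1.495 (1.21 to 1.85). Hsp90ab1, an Hsp90, stood at 254, 339, 273 and 337 CPM with a ratio of 1.33 (1.13 to 1.57). Both were also high in the exon 13 deleted library. Fkbp5, a cochaperone induced by glucocorticoids, stood at 25.3, 53.9, 32.8 and 54.1 CPM. Its ratio was 2.13 (1.31 to 3.58), 2.53 in core nuclei and 2.68 in other excitatory nuclei. Of 8 genes of the glucocorticoid list 5 were higher, with a median log2 ratio of 0.25. That median was -0.024 when 3 of the 4 rule genes were required. In other excitatory nuclei 6 of the 8 were higher, with a median of 0.31. Of 10 cholesterol genes, 8 were lower in layer 6b nuclei, with a median of -0.24 that was 0.048 with equal weight per nucleus. In other excitatory nuclei 0 of the 10 were higher, with a median of -0.35. Msmo1, a sterol oxidase, stood at 46.4, 20.7, 31.4 and 38.7 CPM in layer 6b nuclei. Its ratio was 0.446 (0.257 to 0.754), 0.317 in core nuclei.

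Genes that follow neuronal activity gave a mixed picture in layer 6b nuclei. Of 7 rapid immediate early genes measured, 4 were lower, among them Npas4, an activity-dependent transcription factor, at 29.5, 10.8, 12.3 and 9.28 CPM (ratio 0.365, 0.169 to 0.742), and Junb (0.461, 0.254 to 0.815). Of 11 delayed activity genes, 8 were higher, with a median log2 ratio of 0.18 that was -0.004 without nuclei of high doublet score. The immediate early genes had a median of -0.40, but 0.48 when a mean of 50 CPM was required. In other excitatory nuclei 3 of the 7 immediate early genes were higher, with a median of -0.14. Of the 11 delayed activity genes 7 were higher there, with a median of 0.20. Npas4 had a ratio of 0.637 there and Junb of 0.726. Bdnf, the neurotrophin, stood at 11.6, 31.5, 5.46 and 17.0 CPM in layer 6b nuclei. Its ratio was 2.71 (1.35 to 5.92), 1.83 in core nuclei and 1.26 in other excitatory nuclei. Sorcs3, a sorting receptor of synapses and the most abundant of them, stood at 631, 590.4, 508 and 583 CPM, a ratio of 0.935 (0.836 to 1.05), whereas in other excitatory nuclei it was 1.60 (252 to 402 CPM). Fgf1, a growth factor, was higher in both, at 200.3, 319, 135 and 167 CPM with a ratio of 1.59 (1.33 to 1.91), against 3.01 in other excitatory nuclei (59.4 to 178.5 CPM). The differences between the 2 kinds of nuclei were not tested. Fgf1 was named after its values were seen.

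Of the genes with the firmest ratios in counting terms, Pdap1, a PDGF-associated protein, stood at 14.8, 57.5, 28.7 and 38.7 CPM. A UMI of Pdap1 was found in 34 of 61 nuclei after deprivation and 12 of 81 under ad lib sleep. The median depths of all 61 and all 81 layer 6b nuclei were 15837 and 9815 UMIs. The ratio of Pdap1 was 3.90 (2.16 to 7.53), against 1.67 in other excitatory nuclei and 3.37 in core nuclei. Penk, the enkephalin precursor, stood at 8.43, 44.9, 9.55 and 4.64 CPM, a ratio of 5.33 (2.51 to 13.02), 4.16 in core nuclei and 4.55 without the nucleus of each library that held the most. Nrp1, a semaphorin receptor, had a ratio of 2.49 (1.79 to 3.52), 2.68 in core nuclei. The mitochondrial genes mt-Nd2 and mt-Nd1 had ratios of 2.61 and 2.25, and 1.82 and 1.47 in core nuclei. The median mitochondrial share of UMIs in layer 6b nuclei was 0.189%, 0.259%, 0.223% and 0.236%, and its part in these ratios was not tested. These genes were spread over 16 to 50 nuclei after deprivation. For others 1 nucleus held a large part of the UMIs. Ttr, the transthyretin of the choroid plexus, had 253 of its 276 UMIs in 1 nucleus after deprivation. Htr2c had 125 of 192 and Trpm3 182 of 341. Under ad lib sleep 1 nucleus held 103 of 186 UMIs of Il1rapl2, 102 of 195 of Adarb2 and 79 of 156 of Gpc5. Without the highest nucleus of each library Ttr stood at 20.7 CPM after deprivation and 0 CPM under ad lib sleep. The ratio was then 3.17 for Htr2c, 1.32 for Trpm3, 0.110 for Adarb2 and 0.321 for Gpc5. For Il1rapl2 it was 0.134, but 1.17 without nuclei of high doublet score. Of the vascular genes, Mecom had 51 UMIs in 5 nuclei after deprivation and 0 under ad lib sleep. Flt1 had a ratio of 6.72 in all nuclei and 0.323 in core nuclei. Olfactory receptor genes made up 5 of the 10 lowest genes, with Olfr115 at 0.308 (0.236 to 0.398). 1700047M11Rik and Gm20713 were the others, with 45 and 61 UMIs under ad lib sleep, 23 and 31 of them in 1 nucleus each, and 3 and 9 after deprivation.

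**Figure D4:**
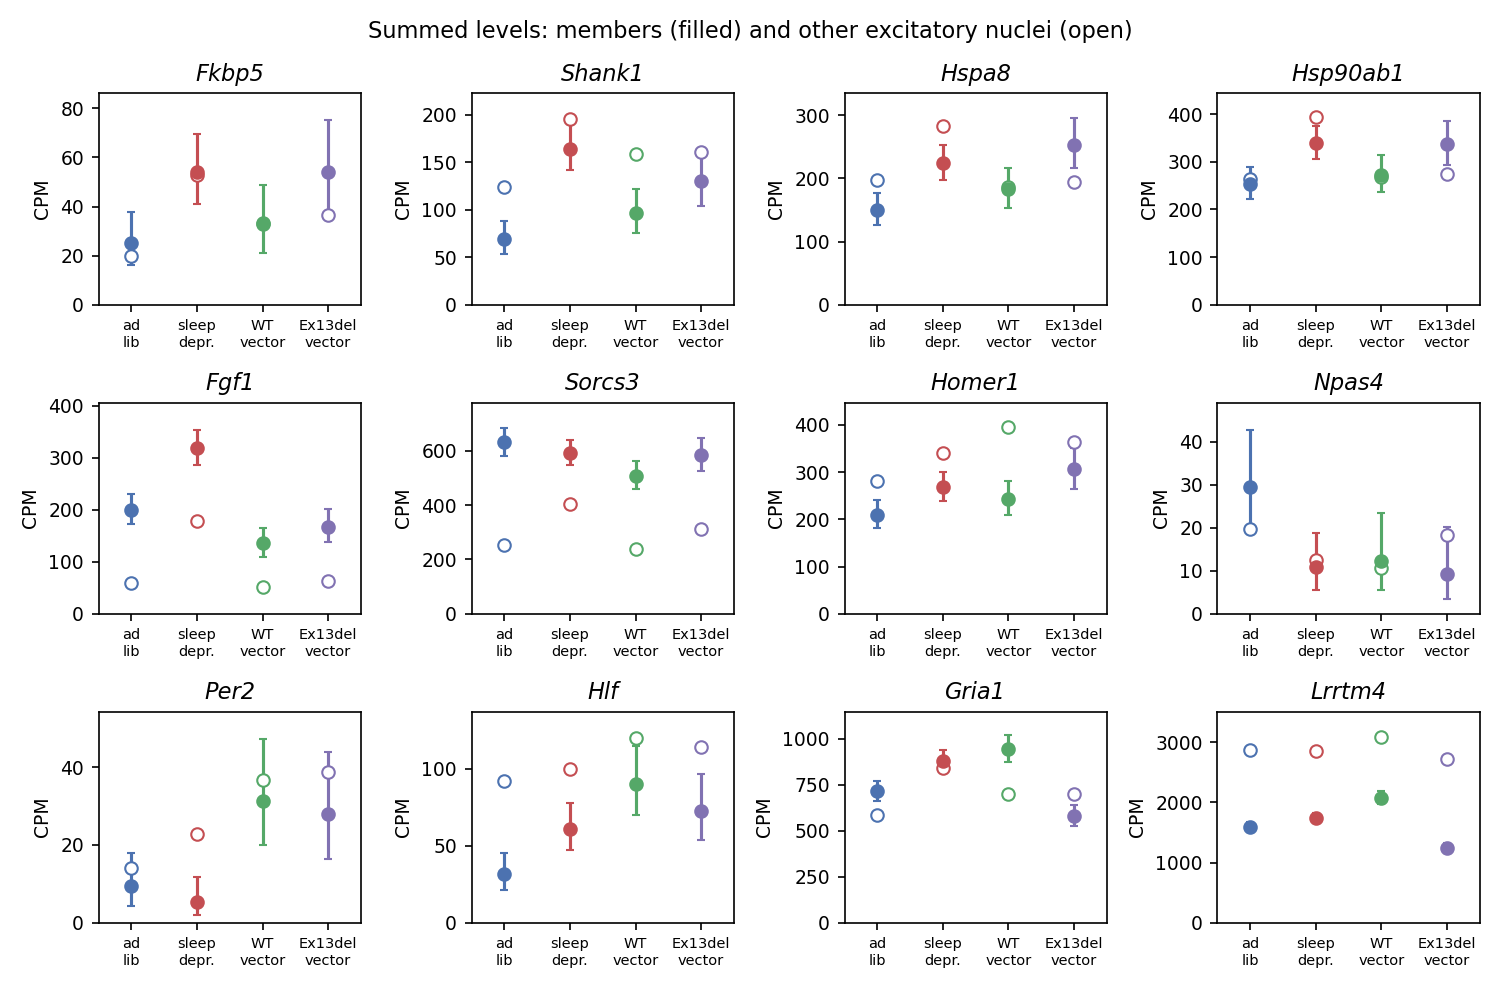
Level of 12 genes in layer 6b nuclei (filled points) and other excitatory nuclei (open points) of the 4 libraries, in CPM, with bars for the 95% Poisson interval of the count. Shank1 and Fkbp5 are higher after sleep deprivation in both, Fgf1 is higher by a smaller factor in layer 6b nuclei (1.59 against 3.01), Sorcs3 has a ratio of 1.60 in other excitatory nuclei and 0.935 in layer 6b nuclei, and Gria1 and Lrrtm4 are lower with the exon 13 deleted vector in layer 6b nuclei.

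Layer 6b nuclei of tissue with the exon 13 deleted vector had lower levels of 1 AMPA receptor subunit and of a synaptic adhesion gene than those with the wild-type vector. The postsynaptic list as a whole was near level. Of 7281 genes, 663 (9.11%) were more than 1.5-fold higher and 627 (8.61%) more than 1.5-fold lower, with 51.8% of genes higher and a median log2 ratio of 0.02.

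Gria1, the GluA1 subunit, stood at 715, 880, 945 and 580 CPM, so the exon 13 deleted library was the lowest of the 4 and the wild-type library the highest. The ratio of exon 13 deleted to wild-type vector was 0.614 (0.540 to 0.697), against 0.995 in other excitatory nuclei and 0.607 in core nuclei. Lrrtm4, a leucine-rich repeat protein of the postsynaptic membrane, stood at 1598, 1742, 2077 and 1240 CPM with a ratio of 0.597 (0.547 to 0.651), against 0.877 and 0.637. Gria4 had a ratio of 0.656 (0.560 to 0.768), but 0.860 in core nuclei. Kalrn, a regulator of spines, was on the other side at 1.35 (1.25 to 1.46) with 1506 and 2032 CPM. Of the 33 postsynaptic genes 15 were higher, with a median log2 ratio of -0.04. The differences from other excitatory nuclei were not tested.

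Of 14 chaperones 9 were higher, with a median log2 ratio of 0.37 against 0.02 in other excitatory nuclei. Ahsa1, an activator of Hsp90, stood at 17.9, 23.4, 19.1 and 40.2 CPM (2.10, 1.06 to 4.36). Dnajb5 had a ratio of 2.04 (0.893 to 4.945) and Hspa4l of 1.61 (1.07 to 2.43). Chordc1 (0.578, 0.342 to 0.954) and Dnajb4 (0.651, 0.390 to 1.07) were lower. The intervals of Dnajb5 and Dnajb4 include 1. Of 10 cholesterol genes 8 were higher, with a median log2 ratio of 0.25, or -0.036 after thinning. Of 11 delayed activity genes 9 were higher, with Plk2, a kinase of activity-dependent synapse weakening, at 1.76 (1.06 to 2.97) and 1.36 in core nuclei. Of 6 rapid immediate early genes 4 were higher, with a median of 0.32 (-0.001 at a minimum of 50 CPM), Arc among them at 1.85 (0.829 to 4.34). Of 8 glucocorticoid genes 6 were higher, with a median of 0.17 that was -0.209 at a minimum of 5 CPM, and Fkbp5 at 1.65 (0.955 to 2.90). The medians in other excitatory nuclei were 0.063 for cholesterol, 0.045 for delayed activity, 0.101 for immediate early and 0.093 for glucocorticoid genes. Of 21 genes of the SIK pathway, which holds the kinase's upstream regulators and its HDAC and CRTC substrates, 14 were higher with a median log2 ratio of 0.09. In core nuclei 11 were higher with a median of 0.005, and in other excitatory nuclei 11 with 0.013. Of 13 clock genes 3 were higher, with a median of -0.17, but in core nuclei 11 were higher with a median of 0.12.

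The genes with the firmest ratios were Atp6v0a2, a proton pump subunit, at 31.6, 27.9, 8.19 and 44.9 CPM (5.48, 2.23 to 16.1), Heatr3 at 33.7, 44.0, 12.3 and 49.5 CPM (4.03, 1.88 to 9.60), Tmem132a at 50.6, 65.6, 38.2 and 116 CPM (3.03, 1.94 to 4.87), Cdh24 (3.52) and Drd1 (3.05, 1.58 to 6.28). Olfr113 was also among the 10 higher genes, with 70.6, 7.19, 21.8 and 66.5 CPM and a ratio of 3.04 (1.68 to 5.79), against 8.78 in other excitatory nuclei. For Atp6v0a2 and Heatr3 the wild-type library stood below the other 3 libraries. Sdk1, a synaptic adhesion protein, stood at 444, 428, 431 and 891 CPM, a ratio of 2.07, or 1.55 without the nucleus of each library with the most UMIs, 194 of 576 in the exon 13 deleted library. Hs3st2 had 2.06, and AC149090.1, which was uneven in all excitatory nuclei, had 2.05 against 1.96 in the others. 6330411D24Rik rested on 26 of 29 UMIs in 1 nucleus. On the lower side, WPRE_pA had a ratio of 0.0786, and Rasgrf2, a Ras regulator, 0.160 (0.0734 to 0.311). Tafa1 had 92 of its 118 wild-type UMIs in 1 nucleus. Mecom, Il1r1, Cldn5, Adgrl4 and Ptprb are genes of blood vessels, and 50 of 50 UMIs of Il1r1 and 97 of 116 of Mecom in the wild-type library lay in 1 nucleus each. Lrmda had 45 UMIs in the wild-type library, 21 of them in 1 nucleus.

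Layer 6b nuclei of tissue with the wild-type vector had higher levels of clock genes than those under ad lib sleep. The labels give no time of day for either library. Of 7109 genes 809 (11.4%) were more than 1.5-fold higher and 369 (5.19%) more than 1.5-fold lower, so that 68.7% of those past 1.5-fold were higher. With median-of-ratios size factors in place of total UMIs it was 56.4%. The median log2 ratio of all genes was 0.06 on total UMIs, and 57.0% of them were higher.

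Of 14 clock and clock output genes 13 were higher, with a median log2 ratio of 0.55, against 12 and 0.18 in other excitatory nuclei and 9 and 0.23 in core nuclei. Per2, a clock repressor, stood at 9.49, 5.39, 31.4 and 27.8 CPM, so both vector libraries were above both libraries without vector. Its ratio was 3.31 (1.48 to 8.13), 2.28 in core nuclei and 2.62 in other excitatory nuclei. Hlf, a clock output factor, stood at 31.6, 61.1, 90.1 and 72.7 CPM with a ratio of 2.85 (1.82 to 4.54), 2.66 in core nuclei and 1.30 in other excitatory nuclei. Per3 had a ratio of 2.12 (1.21 to 3.78), 1.30 in core nuclei. Rorb had 2.02 in all nuclei and 0.304 in core nuclei, with 48 of its wild-type UMIs in 1 nucleus. Sleep deprivation over the same ad lib library also had 8 of 10 clock genes higher. The median log2 ratio there was 0.18, with 0.22 in core nuclei and 0.06 in other excitatory nuclei. In that comparison Arntl had a ratio of 2.07 (1.315 to 3.34) and Hlf of 1.93 (1.24 to 3.08).

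Of 11 cholesterol genes 9 were lower (median log2 ratio -0.42), led by Hmgcs1 at 61.1, 52.1, 36.9 and 58.8 CPM (0.603, 0.367 to 0.967). Of 9 glucocorticoid genes 8 were higher, with a median of 0.36 (-0.058 with 3 of the 4 rule genes required), the mineralocorticoid receptor Nr3c2 at 1.59 (1.07 to 2.38). Of 12 chaperones 9 were higher, with Chordc1 at 1.92 and Hsph1 at 1.87. Of 33 postsynaptic genes 24 were higher, with a median of 0.18 (-0.005 without nuclei of high doublet score), Dlg4 at 1.65 (1.14 to 2.39) and Camk2a, the synaptic kinase, at 247, 354, 379.5 and 388 CPM (1.54, 1.29 to 1.84). Camk2a and Dlg4 were lowest under ad lib sleep among the 4 libraries. Of 22 SIK pathway genes 17 were higher, with a median of 0.19 (-0.052 with 3 of the 4 rule genes), and Hdac7, a class IIa histone deacetylase, at 47.4, 74.6, 80.5 and 52.6 CPM (1.70, 1.13 to 2.56). Of 10 delayed activity genes 6 were higher, with a median of 0.11 that was below 0 under 5 other settings, and of 8 rapid immediate early genes 2, with Npas4 at 0.416 (0.173 to 0.907). In other excitatory nuclei the medians of these lists had the same signs, from -0.162 for cholesterol to 0.181 for glucocorticoid genes.

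The higher genes with the firmest ratios were carried by few nuclei. WPRE_pA is the vector itself. For Mecom, Slco1a4, Il1r1, Cldn5, Flt1, Adgrl4 and Cyyr1, genes of blood vessels and their barrier, and Tbc1d4, a single wild-type nucleus held most UMIs of the gene (101 of 118 for Slco1a4, 89 of 96 for Flt1, 42 of 57 for Tbc1d4). In core nuclei the ratio of Flt1 was 0.761. Of the 10 lower genes, Pid1, a phosphotyrosine-binding protein of insulin signalling, stood at 426, 279, 203 and 269 CPM, a ratio of 0.478 (0.393 to 0.578), with the same direction in core nuclei (0.451) and the opposite in other excitatory nuclei (1.19). Of the olfactory receptor genes 4 were among the 10 lowest, Olfr115 at 0.274 (0.196 to 0.375). AC149090.1 had a ratio of 0.324, against 0.430 in other excitatory nuclei, and Gm49066 of 0.285. C77080 had 69 of its 89 ad lib UMIs in 1 nucleus. Il1rapl2 and 1700047M11Rik were low against ad lib sleep here as above, with the same ad lib nuclei in the sum.

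**Figure D5:**
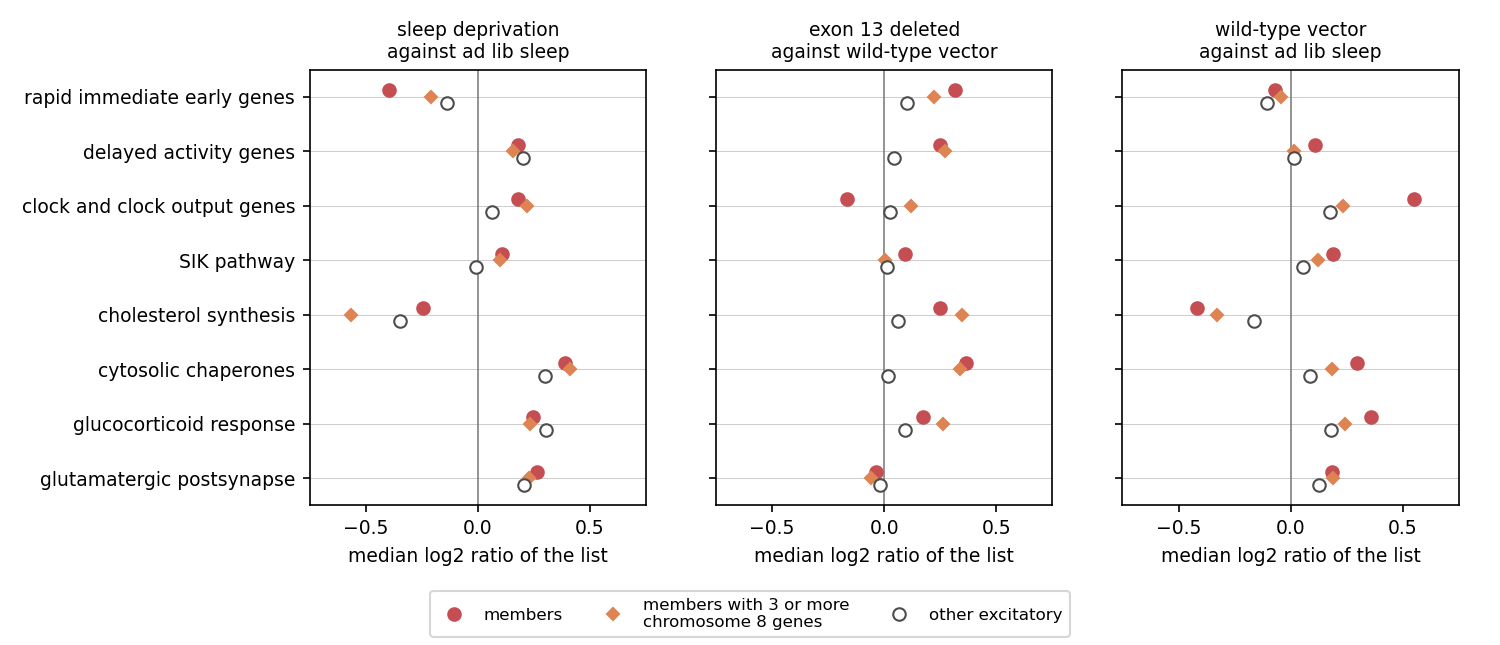
Median log2 ratio of 8 gene lists in the 3 comparisons of libraries, 1 panel each, for all layer 6b nuclei, core layer 6b nuclei and other excitatory nuclei. Chaperone and postsynaptic lists lie above 0 after sleep deprivation in all 3 sets of nuclei (chaperones 0.39, 0.41 and 0.30), and the clock list with the wild-type vector is higher in all layer 6b nuclei (0.55) than in core nuclei (0.23).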

How the data were processed

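Nuclei of 4 libraries were analysed from the deposited matrices, which hold whole-number UMI counts per gene and barcode with no normalization and no cell type annotation. Per the submitters' processing notes, the authors made these counts with Cell Ranger 6.1.2 on mm10. Layer 6b nuclei, gene lists (30 lists, 507 entries), the chromosome 8 and olfactory receptor genes and the split of nuclei by them were chosen with earlier results of these data known, and other genes named outside the naming rule were chosen after their values were seen.

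UMIs of each gene were added up within a group of nuclei per library and expressed as CPM. Ratios are of CPM with exact conditional 95% intervals, shares have Clopper-Pearson intervals and levels Poisson intervals, and all of them cover counting error only. The limit that a count of 0 allows is 3 counts. Log2 ratios used a pseudocount of 1, and those of olfactory receptor nuclei 10. Library comparisons took genes averaging 20 CPM or more and counted those past 1.5-fold; the comparison with other excitatory nuclei counted those past 2-fold in all 4 libraries at 50 CPM, and that of olfactory receptor nuclei at 100 CPM. Named were the genes of the rule, the 20 higher and 10 lower genes with the largest ratio against other excitatory nuclei in the library nearest to 1, per library comparison the 10 genes in each direction whose interval lay farthest from 1, and per list the 3 of highest mean and the 3 of largest ratio past 1.5-fold, beside Sik3 and the vector feature; some genes that the rule names are not reported here.

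Doublets were scored with Scrublet as built into scanpy 1.11.5. Its automatic threshold called 0, 1, 1 and 4 nuclei, too few to have worked. Doublets were therefore kept, and as an alternative the highest 0.8% per 1000 barcodes (700 of 9223, 296 of 5889, 401 of 6889 and 307 of 6018 scored barcodes) were left out. Gene coordinates are those of GENCODE on mm10, matched by gene identifier for 32158 of 32286 features, and promoter sequences those of RefSeq on GRCm38.p6. The computations were checked on simulated data and run in Python 3.11.15 with numpy 2.4.6, pandas 2.3.3, scipy 1.17.1 and matplotlib 3.10.9. Other settings that were tried are given with their effect under the processing limits.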

Additional observations from a re-analysis of the deposited data

Results flagged for a closer look

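A few genes named above stood on opposite sides of 1 in layer 6b nuclei and in other excitatory nuclei under the same comparison of libraries, with 95% counting intervals that did not include 1. With 1 library per group none of these differences was tested, and their causes were not tested either. For the exon 13 deleted over the wild-type vector, Sdk1, a synaptic adhesion gene, had a ratio of 2.07 in layer 6b nuclei and 0.945 in other excitatory nuclei. In the exon 13 deleted library 194 of its 576 UMIs lay in 1 layer 6b nucleus, and without the highest nucleus of each library the ratio was 1.55. Lrmda had 0.101 against 1.53, with 21 of its 45 wild-type UMIs in 1 layer 6b nucleus, and the vessel gene Ptprb 0.201 against 1.20, with 82 of 96 UMIs in 1 nucleus. The vector feature WPRE_pA had 0.0786 against 1.27, where 1 wild-type nucleus held 115 of 173 UMIs.

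For the wild-type vector over ad lib sleep, Pid1 had a ratio of 0.478 in layer 6b nuclei and 1.19 in other excitatory nuclei, and its UMIs were spread over 40 and 67 layer 6b nuclei. Olfr113, which belongs to a multigene family, had 0.309 against 1.98. The tight junction gene Cldn5 had 50.5 against 0.429, with 33 of its 39 wild-type UMIs in 1 nucleus.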

How the results depend on the processing

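The main limits are 1 library per group, 45 to 81 nuclei in each, and a rule that 64 of the 240 nuclei met with fewer than 3 of the 8 chromosome 8 genes. Leaving out each gene's highest nucleus and using the core nuclei were chosen after seeing the data. Of the values recomputed under other settings, 74 counts and shares, 297 list medians and 365 ratios of named genes stayed close, while 38, 4 and 97 moved and 0, 19 and 9 changed direction. The cause was not tested in any case beyond the construction of the setting. No paired analysis was possible because each group has 1 library.

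Requiring 3 of the 4 rule genes lowered the shares of layer 6b nuclei to 1.21%, 1.29%, 0.806% and 0.808%, and thinning to 5000 UMIs to 1.37%, 1.51% and 1.20% in the ad lib sleep, sleep deprivation and exon 13 deleted libraries. Against other excitatory nuclei, a minimum of 5 CPM gave 177 higher and 185 lower genes and 20 CPM 121 and 111. The lower genes numbered 128 with 3 of 4 rule genes, 103 without high doublet scores and 112 in core nuclei.

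For sleep deprivation over ad lib sleep, thinning gave 1266 higher and 956 lower genes, a minimum of 5 CPM 1674 and 1552, and 50 CPM 179 and 118; 3 of 4 rule genes gave 734 lower genes. List medians turned for glucocorticoid genes with 3 of 4 rule genes (-0.024), for delayed activity genes without high doublet scores (-0.004), after thinning (-0.012) and at 50 CPM (-0.015), for cholesterol genes with equal weight per nucleus (0.048), for chaperones after thinning (-0.012) and for immediate early genes at 50 CPM (0.48). Flt1 turned to 0.600 with 3 of 4 rule genes and 0.323 in core nuclei, and Il1rapl2 to 1.17 without high doublet scores.

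For exon 13 deleted over wild-type vector, 3 of 4 rule genes gave 1164 higher and 955 lower genes, thinning 1370 and 1083, 5 CPM 1975 and 1885, and 50 CPM 164 and 192. Medians turned for cholesterol genes after thinning (-0.036), glucocorticoid genes at 5 CPM (-0.21), immediate early genes at 50 CPM (-0.001) and clock genes in core nuclei (0.12). 6330411D24Rik turned to 0.537 without high doublet scores and 0.850 without its highest nucleus, Adgrl4 to 1.47 after thinning and Tafa1 to 1.23 in nuclei with 0 vector UMIs.

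For wild-type vector over ad lib sleep, thinning gave 1242 higher and 866 lower genes, 5 CPM 2192 and 1448, and 50 CPM 250 and 87. Lower genes numbered 813 with 3 of 4 rule genes and 597 in core nuclei, and higher genes 510 without each gene's highest nucleus. The median of delayed activity genes turned without high doublet scores (-0.086), with equal weight (-0.15), after thinning (-0.28), at 50 CPM (-0.15) and without the highest nucleus (-0.016). That of SIK genes (-0.052) and glucocorticoid genes (-0.058) turned with 3 of 4 rule genes, and that of postsynaptic genes without high doublet scores (-0.005). With 3 of 4 rule genes C77080 turned to 1.44, and in core nuclei Flt1 to 0.761.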

Other observations

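The olfactory receptor genes of chromosome 17 also appeared outside layer 6b, and mostly in 1 library. At least 3 UMIs of Olfr110 to Olfr116 were found in 24 of 4057 other excitatory nuclei under ad lib sleep (0.592%), 22 of 2579 after sleep deprivation (0.853%), 27 of 3174 with the wild-type vector (0.851%) and 112 of 2555 with the exon 13 deleted vector (4.38%, 3.62 to 5.25). In the last library the share was 51 of 1911 nuclei with 0 vector UMIs (2.67%), 22 of 467 with 1 (4.71%), 16 of 117 with 2 to 4 (13.7%), 12 of 24 with 5 to 9 (50%, 29.1 to 70.9) and 11 of 36 with 10 or more (30.6%). In the wild-type library it was 22 of 2497 (0.881%) with 0 vector UMIs and 5 of 466 (1.07%) with 1. It was 0 of 136, 0 of 45 and 0 of 30 with more, which allows up to 2.21%, 6.67% and 10%. These classes of vector UMIs were chosen after the data were seen.

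The nuclei with at least 3 receptor UMIs were set against other excitatory nuclei of the same library with 0. In the exon 13 deleted library the 112 had 219 against 30.9 CPM of Bdnf, a neurotrophin (ratio 7.09, 6.21 to 8.08), and the ratio was 1.23, 5.04 and 2.85 in the ad lib sleep, sleep deprivation and wild-type libraries. Pcdh15, a protocadherin, had 4.58 in the exon 13 deleted library and 2.502, 3.24 and 2.19 in the others. The neuropeptide gene Adcyap1 had 12.8 against 2.03, 2.52 and 0.521, the synaptic pentraxin gene Nptx2 5.59 against 0.888, 2.42 and 1.72, and 4930555F03Rik of the chromosome 8 stretch 6.34 against 0.595, 0.708 and 3.24, where the other libraries had 1 to 15 UMIs of each gene. Tox had 0.633 in the exon 13 deleted library and 1.41, 1.67 and 1.68 in the others, and 2.95 to 3.92 in layer 6b nuclei with the receptors over those without. Brinp3 had 3.32 and 1.45, 2.07 and 1.57, above 1 in all 4, and 0.00579 to 0.431 in the same comparison of layer 6b nuclei. A vector UMI was found in 61 of the 112.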
